A study of Mus musculus with 6 samples.

Results

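Cell junction genes that build the blood-testis barrier, with the whole claudin family, were followed in testis RNA of control and dsfb mice. The set was defined by symbol and biotype. No measured value entered that rule, but earlier results of these data were known when it was chosen. It held 55 protein-coding genes of GENCODE M21, among them the claudins, the junctional adhesion molecules F11r, Jam2 and Jam3, the scaffolds Tjp1, Tjp3, Cgn and Cgnl1, occludin and the Marveld genes, the nectins with Afdn, and Gja1, Cdh1, Cdh2, Ctnna1 and Ctnnb1. Of these 54 were among the 55487 genes of the count table. Cldn34c3 was not, and it enters only with its promoter window. Polyadenylated RNA was sequenced from testes of 6 mice at postnatal day 19. The 3 control mice carry the genotype label control with no further allele given. The 3 dsfb mice are, by the series title, homozygous for SFB alleles of Hormad1 and of Hormad2, genes of the meiotic chromosome axis. The labels give neither strain nor what the SFB allele changes, and the comparison of dsfb with control asks which transcripts differ in testes homozygous for both alleles.

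The blood-testis barrier lies between neighbouring Sertoli cells, the somatic support cells of the seminiferous tubule. It combines tight junctions, an actin-based adherens junction called the basal ectoplasmic specialization, gap junctions and desmosomes, and it separates spermatogonia and early spermatocytes from later germ cells. Claudins form the tight junction strands, with Cldn11 as the main claudin of Sertoli cells, and Tjp and cingulin proteins tie the strands to actin. Nectins link Sertoli cells to germ cells, with Nectin2 on the Sertoli side and Nectin3 on the spermatid side in mouse.

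Libraries held 15335130 to 27707291 counts, and the control libraries were deeper than the dsfb libraries. Levels are CPM (counts scaled to a fixed library total) on library sizes scaled by TMM, a method that assumes most genes do not change, and ± stands for the SD over n = 3 mice. Of the targeted genes Hormad1 measured 446, 486 and 209 CPM in control, in replicate order, against 217, 246 and 243 CPM in dsfb. Hormad2 measured 60.0, 55.0 and 42.9 CPM against 25.1, 28.7 and 27.3 CPM. Hormad2 was lower (edgeR adjusted p = 0.000757) and Hormad1 was not called (edgeR adjusted p = 0.0597). The Hormad1 groups overlapped only through control replicate 3, at 0.449 times the mean of the other controls. These levels do not check the genotype, since the labels do not say what the alleles do to the transcript. Control replicate 3 stood apart from the other controls, with a summed level of 10 spermatid markers of 1187 CPM against 524 and 589 CPM. Its 6 markers of leptotene and zygotene spermatocytes summed to 938 CPM against 1705 and 1814 CPM. Beyond the Hormad genes, values that rest on it are given with and without it. The libraries were also not alike in somatic content. Of 18 autosomal Sertoli markers, such as Sox9, Wt1, Gata4, Inha and Clu, 17 were higher in dsfb and the remaining one, Trf, was not called (edgeR adjusted p = 0.0796). Their summed level was 2987 to 4104 CPM in control and 7024 to 7439 CPM in dsfb, and none was at 0. In bulk RNA a change in the number of cells of a type and a change in RNA per cell cannot be told apart. Changes of members are therefore given with TMM and again with libraries scaled so that the median Sertoli marker level is equal in all of them. This Sertoli scaling shifted the median over all tested genes by -1.15 (log2).

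The start regions of 5 members show the sequence contrast within the set. Cldn11, Nectin2 and Nectin3 are the genes on which the Sertoli and germ cell results turn, and Cldn34c1 and Cldn34b4 are X-linked relatives that went in opposite directions. Each is a RefSeq window of 300 bases on GRCm38.p6, from 250 bases before to 50 after the start, printed along the gene's own strand. Capitals mark the GC box GGGCGG in either orientation.
Cldn11 (chr3:31149670-31149969, plus strand): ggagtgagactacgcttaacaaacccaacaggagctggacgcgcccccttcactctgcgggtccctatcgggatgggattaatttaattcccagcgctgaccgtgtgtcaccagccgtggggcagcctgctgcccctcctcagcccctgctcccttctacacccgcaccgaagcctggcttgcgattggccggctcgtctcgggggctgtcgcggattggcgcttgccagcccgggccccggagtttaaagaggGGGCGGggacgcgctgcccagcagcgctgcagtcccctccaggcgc
Nectin2 (chr7:19749524-19749823, minus strand): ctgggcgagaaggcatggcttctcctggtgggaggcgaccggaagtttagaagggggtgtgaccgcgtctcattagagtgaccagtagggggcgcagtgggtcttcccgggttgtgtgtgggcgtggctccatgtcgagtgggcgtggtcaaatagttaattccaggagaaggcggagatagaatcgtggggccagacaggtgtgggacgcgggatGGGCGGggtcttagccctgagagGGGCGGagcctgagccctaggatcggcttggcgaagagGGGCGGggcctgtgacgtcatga
Nectin3 (chr16:46496918-46497217, minus strand): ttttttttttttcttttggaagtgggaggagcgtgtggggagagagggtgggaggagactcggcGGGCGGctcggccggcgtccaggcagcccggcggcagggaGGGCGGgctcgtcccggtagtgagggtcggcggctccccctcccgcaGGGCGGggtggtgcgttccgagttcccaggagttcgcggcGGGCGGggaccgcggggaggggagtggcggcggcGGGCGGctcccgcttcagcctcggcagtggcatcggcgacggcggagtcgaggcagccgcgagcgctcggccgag
Cldn34c1 (chrX:123103273-123103572, plus strand): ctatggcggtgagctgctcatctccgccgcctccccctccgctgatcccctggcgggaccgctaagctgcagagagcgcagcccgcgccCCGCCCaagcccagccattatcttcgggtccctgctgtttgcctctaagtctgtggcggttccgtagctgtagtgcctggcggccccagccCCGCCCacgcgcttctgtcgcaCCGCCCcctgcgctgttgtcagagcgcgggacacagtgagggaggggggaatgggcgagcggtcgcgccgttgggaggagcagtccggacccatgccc
Cldn34b4 (chrX:76393100-76393399, plus strand): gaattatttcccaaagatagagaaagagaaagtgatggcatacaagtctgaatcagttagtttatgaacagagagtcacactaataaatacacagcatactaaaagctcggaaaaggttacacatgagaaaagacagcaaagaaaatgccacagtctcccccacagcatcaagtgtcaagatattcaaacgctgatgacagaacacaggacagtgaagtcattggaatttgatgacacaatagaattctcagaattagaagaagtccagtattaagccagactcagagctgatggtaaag
Of 55 members 39 had at least 1 window, 51 windows in all. A GC box stood in 27 of the 51, in 16 of the 20 windows of members that were higher in dsfb, and in 35.7% of 32851 windows of all genes. Some windows of 1 gene overlap, and by gene 12 of 14 higher members held the box. The windows of all genes were not limited to genes expressed here. Nectin3, which fell, and Afdn and Tjp1, which were not called, also held it, while Cldn20 and Tjp3, not called, did not. These shares do not tie the box to a rise. The Cldn11, Nectin2 and Nectin3 windows were 66.3%, 62.7% and 73.7% G or C, and Cldn34c1 was at 69.7%. The window of Cldn34b4 was at 38.3% with 2 CG dinucleotides, against a median of 52.7% and 7 CG dinucleotides over all windows. Of the other Cldn34 windows none held the box: Cldn34b2 was at 44.3%, Cldn34d at 40.3%, Cldn34a at 41.3% and Cldn34c3 at 49.3% G or C. RefSeq starts can differ from the GENCODE bounds. The Cldn34b2 window lies outside its GENCODE gene, and the Cldn34c3 window lies inside its gene, away from the annotated start. The cyclic AMP response element TGACGTCA, which reads the same on both strands, was in the windows of Nectin2, Cldn6 and Cldn7, and in 1.79% of all windows. These matches describe letters in a window and show no binding.

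At TMM scaling 19 of 38 tested members were higher in dsfb, among them Cldn11, Cgn, F11r, Ocln, Gja1 and Nectin2, while Nectin3, Cdh2, Marveld3 and 4 X-linked claudins were lower. Of the 54 members 38 passed the filter on low counts and were tested, and 6 of these had under 10 counts in every library of a group, so their test rests on the group where they are high. They are Cldn23, Marveld3 and the 4 X-linked claudins that were lower, and their calls add no support. The threshold was an edgeR adjusted p of 0.05, which 19 passed as higher and 7 as lower, and 12 were not called. The background is high: 30.7% of all 19826 tested genes rose and 36.2% fell, 66.9% together. The share of tested members that rose was thus above the background and the share that fell, 18.4%, below it. The median log2 fold change was 0.61 over the tested members and 0.02 over all genes. With the Sertoli scaling 0 members rose and 18 fell, against 1.01% and 66.8% of all genes. At TMM scaling 23 tested members had all dsfb libraries above all controls and 8 had all below, against 36.2% and 38.5% of all genes.

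**Figure D1:**
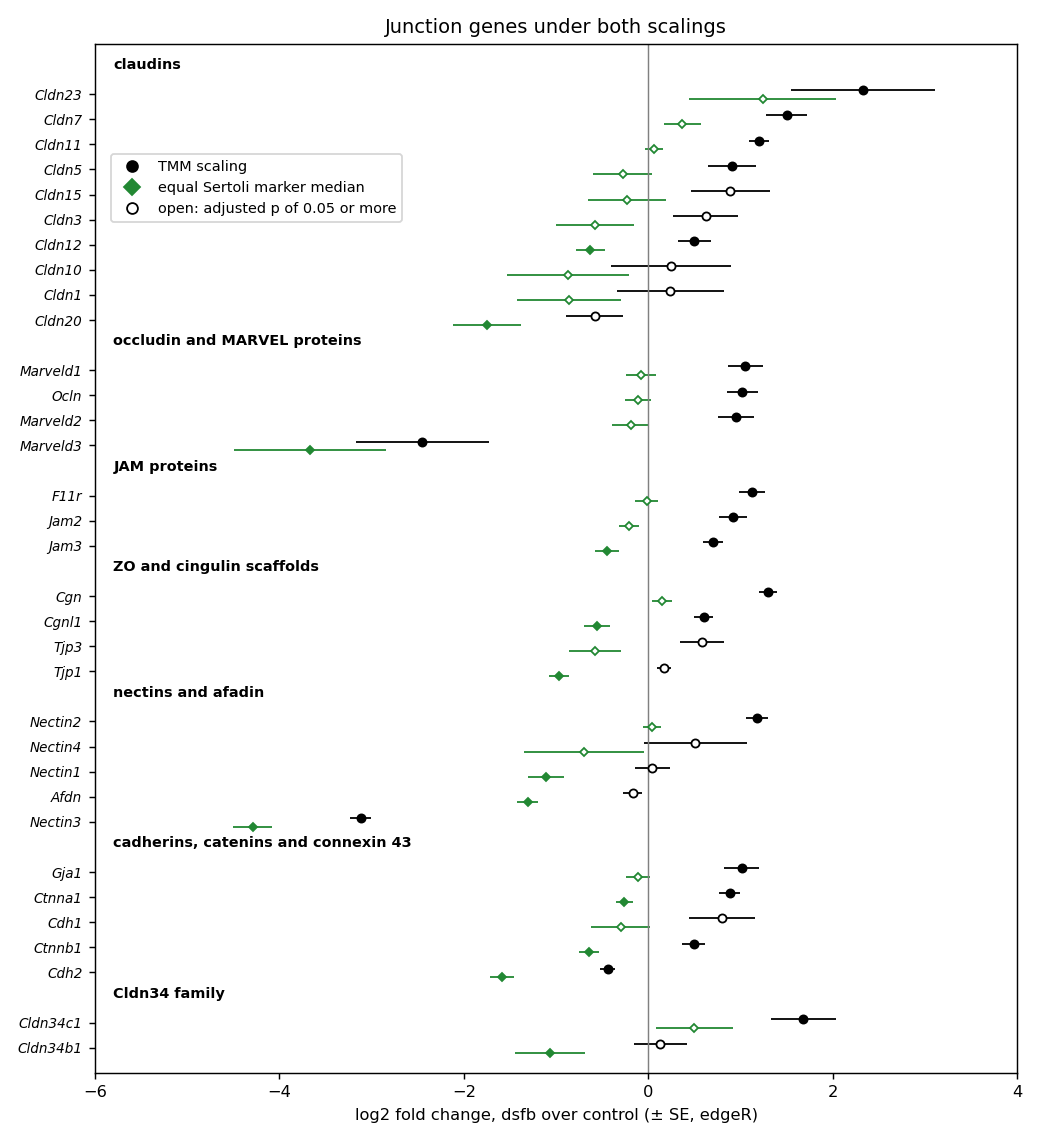
Log2 fold change of dsfb over control (x axis, ± SE, edgeR, n = 3 per group) for the members described here that were tested and had more than 3 dsfb counts, grouped by role. Black circles use TMM and green diamonds the scaling to an equal Sertoli marker median, and filled symbols passed an adjusted p of 0.05. Cldn11, Cgn, Nectin2 and F11r lie near 0 with the second scaling, whereas Tjp1, Afdn, Cdh2 and Nectin3 lie below it.

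Of the claudins known from the Sertoli cell barrier, Cldn11 and Cldn5 rose and Cldn3 was not called. Cldn11 (chromosome 3, 31149920 to 31164324, plus strand) had levels of 251, 218 and 197 CPM in control, given in replicate order here and below, against 521, 506 and 500 CPM in dsfb. The groups did not overlap, and the dsfb libraries lay within a few percent of each other. Its log2 fold change was 1.20 (SE 0.11, edgeR adjusted p = 5.56e-05), a 2.29-fold rise. Scaled to the Sertoli markers it was 0.06 (edgeR adjusted p = 0.64), so that Cldn11 moved as the markers did.

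Cldn5, a claudin of Sertoli cells and of endothelium, was at 3.58, 3.84 and 5.93 CPM in control and at 9.65, 7.69 and 7.83 CPM in dsfb. It rose 1.88-fold with groups that did not overlap (log2 0.91, SE 0.26, edgeR adjusted p = 0.0142). The call was lost without control replicate 1 or 2 or dsfb replicate 1 (edgeR adjusted p = 0.0571, 0.0533 and 0.0544), and the log2 fold change was -0.28 with the Sertoli scaling (edgeR adjusted p = 0.478). Of 10 endothelial markers 3 rose and 1 fell, near the 30.7% of all genes that rose. Their summed level was 49.0 to 51.4 CPM in control and 54.2 to 62.6 CPM in dsfb, and none was at 0. Their part in the rise of Cldn5 was not tested.

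Cldn3, which in mouse appears in new tight junctions while spermatocytes cross the barrier, was at 4.19, 2.73 and 7.37 CPM in control and at 7.92, 7.29 and 6.75 CPM in dsfb. Control replicate 3 lay among the dsfb libraries, and the difference was not called (log2 0.62, 95% interval -0.20 to 1.44, edgeR adjusted p = 0.153). Without that control the log2 fold change was 1.06 (edgeR adjusted p = 0.000231), and with all libraries it was -0.58 with the Sertoli scaling (edgeR adjusted p = 0.263). Its gene overlaps Wbscr25 on the opposite strand by 40 exonic bases.

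Cldn7, an epithelial claudin, was at 3.26, 3.34 and 2.36 CPM in control and at 7.72, 9.24 and 8.53 CPM in dsfb. The rise was 2.84-fold with groups far apart (log2 1.5, SE 0.22, edgeR adjusted p = 0.000699), and 0.37 on the log2 scale with the Sertoli scaling (edgeR adjusted p = 0.139). Of 9 tested markers of rete testis and duct epithelium 1 rose and 4 fell, and their summed level was 108 to 119 CPM in control and 89.9 to 92.9 CPM in dsfb, none being at 0. Epcam was at 42.4 ± 2.41 and 36.7 ± 3.48 CPM, Krt8 fell from 7.52 ± 3.09 to 0.536 ± 0.0753 CPM, and Spint1 rose from 12.5 ± 1.27 to 23 ± 0.438 CPM. Their part in the rise of Cldn7 was not tested.

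Cldn12, a claudin linked to calcium permeability in the intestine, was at 25.5 ± 5.74 CPM in control and 36.0 ± 2.68 CPM in dsfb. Its small rise (log2 0.50, SE 0.18, edgeR adjusted p = 0.0388) was lost without control replicate 1 or any 1 dsfb library (edgeR adjusted p = 0.0629 to 0.121), and it was -0.63 with the Sertoli scaling (edgeR adjusted p = 0.0088). Cldn23 had 6, 0 and 3 counts in control and 9, 15 and 15 in dsfb, which is 0.279, 0 and 0.139 CPM against 0.457, 0.861 and 0.810 CPM. Its 5.03-fold rise (log2 2.33, SE 0.78, edgeR adjusted p = 0.0294) rests on few reads. Cldn23 passed the filter through its dsfb counts only, so its call adds no support. The log2 fold change went to 3.26 and 1.72 without control replicates 1 and 2, and lost its call without dsfb replicate 2 or 3 (edgeR adjusted p = 0.093 and 0.0888). With the Sertoli scaling it was 1.24 (edgeR adjusted p = 0.208).

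Of the other tested claudins outside the Cldn34 family, Cldn1, Cldn10, Cldn15 and Cldn20 were not called. Cldn1, a skin barrier claudin, was at 2.23, 3.43 and 0.556 CPM in control and at 2.90, 1.61 and 2.86 CPM in dsfb, so the spread between controls was wider than the difference (log2 0.24, 95% interval -1.10 to 1.58, or -0.24 without control replicate 3). Cldn10, Cldn15 and Cldn20 had group means of 0.589 to 1.16 CPM. The 13 claudins of this class that were not tested had group means of 0.615 CPM or less. Cldn8, Cldn17 and Cldn22 had no counted read in any library. For Cldn8 and Cldn17 this allows a level of up to 0.0244 CPM over the 6 libraries (3 counts). For Cldn22 it sets no limit, since 100% of its 50-base words also stand in other genes, and for Cldn24 the share was 68.9%. Cldn9 had 41 counts in control and 2 in dsfb, and the ratio of control to dsfb was 17.0 (95% interval from counting error, 4.40 to 145), or 11 (2.62 to 97.4) without control replicate 3, which held 23 of the 41. Cldn14 had 12 and 0 counts, at least 3.31-fold lower with a floor of 3 counts over the dsfb group, or 1.62-fold without control replicate 3. These limits reflect counting error and nothing else.

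**Figure D2:**
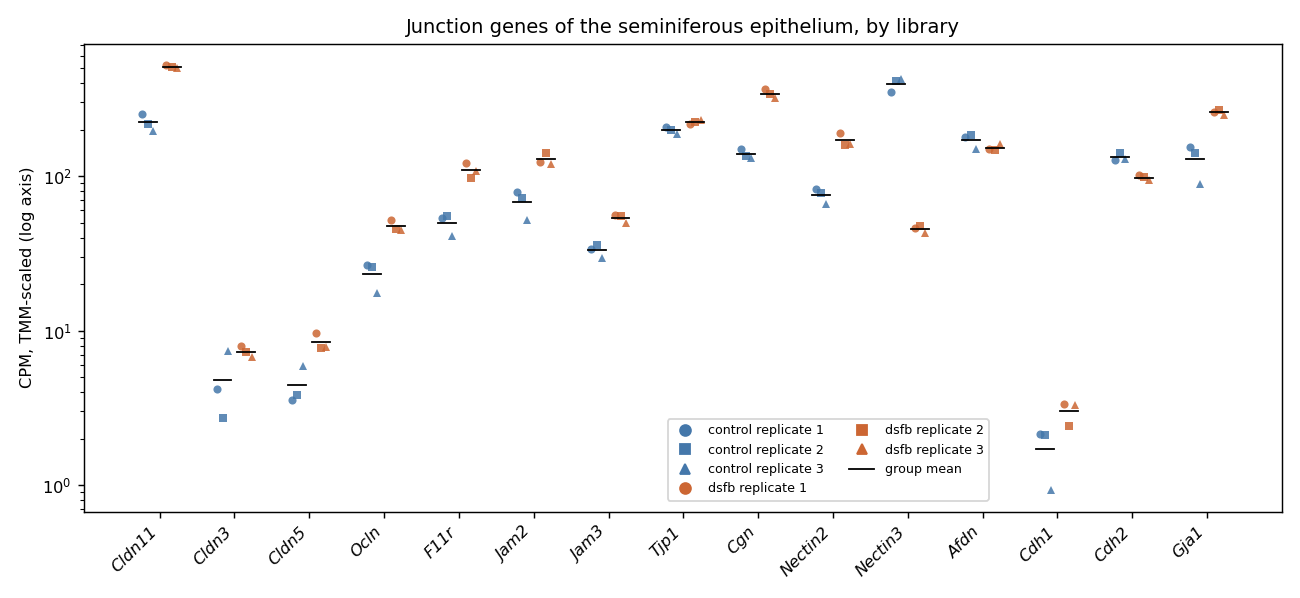
TMM-scaled CPM (log axis) of 15 junction genes in each library, with control in blue, dsfb in orange, symbols for replicates 1 to 3 and a bar for the group mean. Nectin3 lies at 351 to 422 CPM in control and 42.7 to 47.3 CPM in dsfb, while Cldn11, Cgn, F11r and Nectin2 lie higher in dsfb.

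Occludin and its relatives, membrane proteins of the tight junction, split into risers and a single low-level faller. Ocln was at 26.7, 25.9 and 17.6 CPM in control and at 51.7, 45.6 and 44.9 CPM in dsfb. The groups were apart, and Ocln rose 2.03-fold (log2 1.02, SE 0.17, edgeR adjusted p = 0.0014). Marveld1 rose 2.07-fold from 9.01 ± 1.57 CPM (edgeR adjusted p = 0.00189), and Marveld2, which seals corners where several cells meet, rose 1.93-fold from 3.63 ± 0.416 CPM (edgeR adjusted p = 0.00397). On the Sertoli scaling these 3 genes stood at -0.11, -0.08 and -0.19 on the log2 scale and none passed (edgeR adjusted p = 0.507, 0.672 and 0.418).

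Marveld3 went the other way. It was at 0.698, 0.661 and 2.55 CPM in control and at 0.356, 0.229 and 0.108 CPM in dsfb, from 15, 16 and 55 counts against 7, 4 and 2. It fell at TMM scaling (log2 -2.45, SE 0.72, edgeR adjusted p = 0.0179) and with the Sertoli scaling (log2 -3.67, edgeR adjusted p = 0.00531), and control replicate 3 held 55 of its 86 control counts. Marveld3 passed the filter through its control counts only, so its call adds no support. Without control replicate 3 or 1 the gene fell under the filter and had no test, and without dsfb replicate 2 or 3 the call was lost (edgeR adjusted p = 0.0573 and 0.0661).

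All 3 junctional adhesion molecules rose at TMM scaling. F11r, an adhesion receptor of epithelial tight junctions, was at 53.8, 55.0 and 41.0 CPM in control and at 122, 96.6 and 108 CPM in dsfb. It rose 2.18-fold (log2 1.12, SE 0.14, edgeR adjusted p = 0.000317) with no overlap of groups. Jam2 was at 78.3, 71.9 and 52.2 CPM in control and at 124, 140 and 120 CPM in dsfb, a 1.89-fold rise (edgeR adjusted p = 0.00132). Jam3, which in mouse is needed for spermatid polarity, was at 33.8, 36.0 and 29.3 CPM in control and at 55.9, 55.4 and 49.5 CPM in dsfb, a 1.62-fold rise (edgeR adjusted p = 0.00119). With the Sertoli scaling F11r was at -0.02 and Jam2 at -0.21 on the log2 scale with no call (edgeR adjusted p = 0.916 and 0.141), and Jam3 was lower at -0.45 (edgeR adjusted p = 0.0153). Jam3 overlaps Gm48796 on the opposite strand by 1159 exonic bases, and without a stated strand setting its reads cannot be told from that gene's.

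The scaffolds behind the strands differed from each other. Cgn, the tight junction protein cingulin, was at 150, 134 and 131 CPM in control and at 368, 337 and 320 CPM in dsfb. This was a 2.47-fold rise (log2 1.30, SE 0.10, edgeR adjusted p = 1.92e-05), or 0.15 with the Sertoli scaling (edgeR adjusted p = 0.264). Of its 50-base words 17.2% also stand in other genes, so part of its reads may be shared. Tjp1, the central scaffold of the tight junction, was at 209, 200 and 187 CPM in control and at 218, 222 and 231 CPM in dsfb. The groups did not overlap, yet the difference was small and not called (log2 0.17, 95% interval -0.01 to 0.36, edgeR adjusted p = 0.0913). With the Sertoli scaling Tjp1 was lower (log2 -0.97, edgeR adjusted p = 0.000192), and with library size as the only scaling it was higher (log2 0.57, edgeR adjusted p = 0.00103).

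Cgnl1, a cingulin relative, rose 1.51-fold from 57.6 ± 4.89 to 87.2 ± 4.62 CPM (log2 0.60, edgeR adjusted p = 0.00106). It was lower with the Sertoli scaling (log2 -0.56, edgeR adjusted p = 0.0088). Tjp3, at 1.47 ± 0.16 and 2.21 ± 0.118 CPM, was not called (log2 0.58, 95% interval 0.03 to 1.14, edgeR adjusted p = 0.0594).

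Nectin3 had the best-measured fall of the set, and its Sertoli-side partner Nectin2 rose. Nectin3 (chromosome 16, 46387706 to 46498525, minus strand) had levels of 351, 413 and 422 CPM in control against 46.1, 47.3 and 42.7 CPM in dsfb. Control replicate 3, which stood apart in spermatid markers, was 1.11 times the mean of the other controls here. Nectin3 fell 8.72-fold (log2 -3.12, SE 0.11, edgeR adjusted p = 4.38e-07), or -4.29 on the log2 scale with the Sertoli scaling (edgeR adjusted p = 7.13e-06). Nectin2 was at 82.8, 77.1 and 65.6 CPM in control and at 190, 159 and 162 CPM in dsfb. Its rise was 2.26-fold (log2 1.18, SE 0.12, edgeR adjusted p = 9.22e-05), or 0.04 with the Sertoli scaling (edgeR adjusted p = 0.76). Nectin2 overlaps Gm20512 on the opposite strand by 135 exonic bases.

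A ratio of both nectins within a library does not depend on the scaling. Per length (TPM, counts per exon length scaled to a fixed total), Nectin3 over Nectin2 was 1.16, 1.47 and 1.76 in control and 0.0666, 0.0815 and 0.0721 in dsfb, 19.7 times lower. All dsfb ratios lay far below all control ratios, with an exact permutation p of 0.1 (two-sided, 0.225 adjusted over 9 ratios), the smallest that 3 against 3 allows. The groups of each gene were already apart, in opposite directions, so the separation of the ratio follows from that and adds no support. Spermatogonial markers and those of leptotene and zygotene spermatocytes, counted below, went in both directions. Markers of later germ cells fell as Nectin3 did. All 10 markers of mid to late pachytene spermatocytes were lower in dsfb, with a summed level of 7692 to 10687 CPM in control and 291 to 320 CPM in dsfb, and all 9 tested spermatid markers were lower, at 524 to 1187 against 41.4 to 50.4 CPM. Their part in the fall of Nectin3 was not tested.

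Afdn, the actin-binding partner of nectins, was at 180, 183 and 150 CPM in control and at 149, 148 and 160 CPM in dsfb. The groups overlapped through control replicate 3 and the difference was not called (log2 -0.17, 95% interval -0.40 to 0.06, edgeR adjusted p = 0.167). It was called lower without that library (log2 -0.28, edgeR adjusted p = 0.00281) and with the Sertoli scaling (log2 -1.31, edgeR adjusted p = 4.07e-05), and its sign turned with library size only (log2 0.22). Afdn overlaps Tcte2 on the opposite strand. Nectin1, at 6.53 ± 0.279 and 6.71 ± 0.772 CPM, was not called (log2 0.04, 95% interval -0.40 to 0.47), nor was Nectin4, at 0.465, 0.413 and 1.53 CPM in control and 0.813, 1.03 and 1.57 CPM in dsfb. Without control replicate 3 Nectin4 was called higher (log2 1.33, edgeR adjusted p = 0.0191).

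Cadherins, catenins and the gap junction gene Gja1 also parted. Cdh2, the cadherin of Sertoli and germ cells, was at 127, 141 and 128 CPM in control and at 101, 98.0 and 94.0 CPM in dsfb. It fell 1.35-fold with no overlap of groups (log2 -0.44, SE 0.08, edgeR adjusted p = 0.00239), and by 1.59 on the log2 scale with the Sertoli scaling (edgeR adjusted p = 4.69e-05). With upper-quartile scaling or library size only the call was lost (log2 -0.16 and -0.04, edgeR adjusted p = 0.129 and 0.686). Cdh1, the epithelial cadherin, which in mouse testis marks spermatogonia, was low, at 2.14, 2.11 and 0.927 CPM in control and 3.35, 2.41 and 3.29 CPM in dsfb. The groups did not overlap, but the difference was not called (log2 0.80, 95% interval -0.03 to 1.64, edgeR adjusted p = 0.0793), and the sign turned with the Sertoli scaling (log2 -0.30).

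Gja1, the main connexin of Sertoli cells, was at 155, 140 and 89.1 CPM in control and at 258, 268 and 248 CPM in dsfb. It rose 2.01-fold (log2 1.01, SE 0.19, edgeR adjusted p = 0.00232), and was -0.11 with the Sertoli scaling (edgeR adjusted p = 0.504). Ctnna1, which links cadherins to actin, rose 1.83-fold from 142 ± 18.3 to 260 ± 8.58 CPM (edgeR adjusted p = 0.00028). Ctnnb1, the catenin that also acts in Wnt signalling, rose 1.41-fold from 300 ± 45.9 to 422 ± 4.86 CPM (edgeR adjusted p = 0.00813). Both catenins were lower with the Sertoli scaling (log2 -0.26 and -0.64, edgeR adjusted p = 0.0376 and 0.00118). Ctnnb1 shares 759 exonic bases with Ulk4 on the opposite strand.

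Levels of different members can be ranked only per length. In control testes Cldn11 had the highest TPM of the set (344 ± 68.4, SD, n = 3), followed by Ctnnb1 (168 ± 38.4), Nectin3 (88.9 ± 6.62), Tjp1 (73.3 ± 10.1), Cgn (66.3 ± 9.58), Ctnna1 (63.9 ± 13.1) and Nectin2 (62.3 ± 12.1). Tjp1, Cgn, Ctnna1 and Nectin2 each lay within the spread of the next, while Cldn11 and Ctnnb1 stood clear. Within every control library Nectin3 lay above Tjp1, and Tjp1 above Cgn, Ctnna1 and Nectin2. In control replicate 1 Nectin3 and Tjp1 were close (84.1 and 81.6 TPM). In dsfb Cldn11 (1121 ± 21.1) and Ctnnb1 (335 ± 10.6) again came first, then Cgn (233 ± 13.0), Nectin2 (200 ± 18.3), F11r (168 ± 19.8) and Ctnna1 (167 ± 2.79). F11r and Ctnna1 did not differ beyond their spread. Nectin3 went from rank 3 to rank 22 of the 54 members, at 14.6 ± 0.430 TPM.

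To compare members within a library, 8 were set against Cldn11. The share of all genes whose ratio to Cldn11 does not overlap between groups was not counted, so nothing is drawn from how many members had such a ratio. Cldn11 moved as the Sertoli markers did, and with that scaling 66.8% of all genes were lower, at a median log2 fold change of -1.14. A lower ratio to Cldn11 is thus not particular to these members. Cgn over Cldn11 was 0.194 ± 0.0116 in control and 0.208 ± 0.0104 in dsfb (TPM ratio, n = 3), Ocln over Cldn11 was 0.0463 ± 0.00647 and 0.0412 ± 0.00239, and Gja1 over Cldn11 was 0.104 ± 0.0186 and 0.0923 ± 0.00358. The groups overlapped in these pairs (exact permutation p = 0.3, 0.4 and 0.4), which does not show that the ratios were equal. Cldn3 and Cldn5 over Cldn11 were 0.0330 ± 0.0199 and 0.0273 ± 0.0111 in control, and 0.0213 ± 0.00127 and 0.0217 ± 0.00238 in dsfb, with overlapping groups (exact permutation p = 0.5 and 0.7). Without control replicate 3 the control means were 0.0216 and 0.0210. Tjp1 over Cldn11 was 2.04 times lower in dsfb (0.215 ± 0.0145 against 0.105 ± 0.00532), Afdn 2.58 times (0.141 ± 0.0111 against 0.0546 ± 0.00324) and Cdh2 3.11 times (0.139 ± 0.0193 against 0.0444 ± 0.000779). In these 3 pairs all dsfb ratios lay below all control ratios, with an exact permutation p of 0.1, or 0.225 adjusted over the 9 ratios, a design that cannot pass 0.05.

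**Figure D3:**
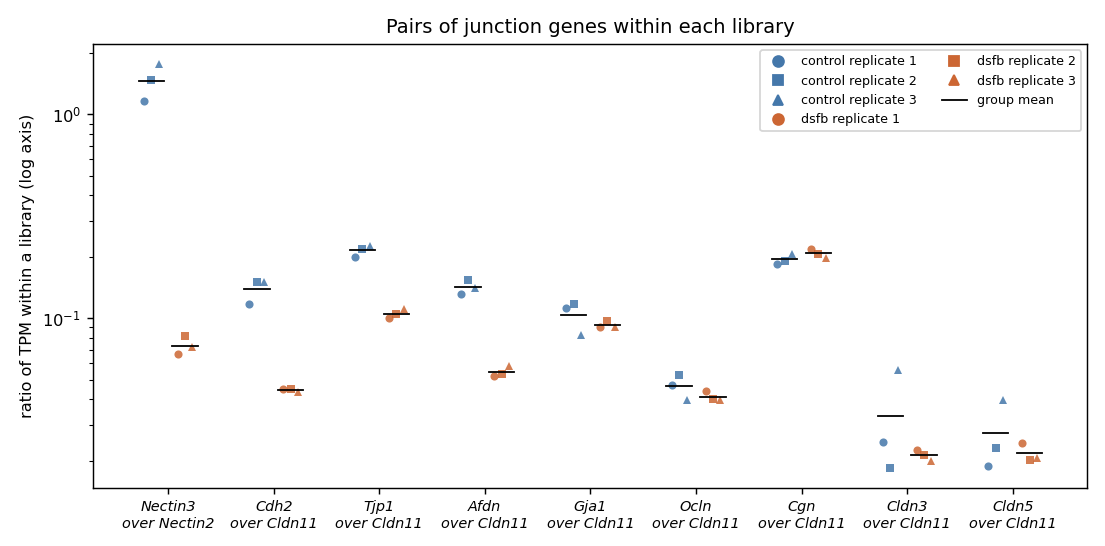
Ratio of length-scaled levels (TPM, log axis) for 9 pairs of junction genes in each of the 6 libraries, with control in blue, dsfb in orange and bars for group means. Nectin3 over Nectin2 falls from 1.46 ± 0.301 to 0.0734 ± 0.00754, while Cgn, Ocln and Gja1 over Cldn11 overlap between groups.

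The X-linked Cldn34 genes, members of the claudin family by name, held the largest falls of the set. Cldn34b4 (76393350 to 76397979 on the X chromosome, plus strand) had 49, 55 and 201 counts in control, or 2.28, 2.27 and 9.32 CPM, and 0 counts in each dsfb library. Cldn34b2 was at 1.54, 2.64 and 6.35 CPM in control and Cldn34b3 at 1.81, 1.32 and 4.68 CPM, and both had 0 counts in dsfb. Cldn34d was at 1.49, 0.908 and 6.17 CPM in control, and at 0, 0.115 and 0 CPM in dsfb. These 4 genes fell (edgeR adjusted p = 0.00193, 0.00139, 0.00151 and 0.00299, in the order given), and were also called lower with the Sertoli scaling (edgeR adjusted p = 0.00222, 0.00161, 0.00158 and 0.00193). All 4 passed the filter through their control counts only, whatever the scaling, so these calls add no support to the counts. Of all 766 tested X-linked genes 8.49% fell and 74.0% rose.

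With a floor of 3 counts over the dsfb group, Cldn34b4 was at least 84.1-fold lower, Cldn34b2 at least 64.5-fold and Cldn34b3 at least 47.4-fold. Cldn34c4, with 14, 11 and 127 control counts, was at least 41.9-fold lower and Cldn34a, with 15, 8 and 88, at least 30.6-fold. Both Cldn34c4 and Cldn34a were under the filter and had no test with all libraries. When control replicate 2 or any 1 dsfb library was left out, they passed the filter and were called lower. They passed it through their control counts only, so these calls add no support. For Cldn34d, with 187 counts against 2, the control level was 77.3 times the dsfb level (95% interval from counting error, 21.1 to 643), or 32.9 times (8.67 to 278) without control replicate 3. In all 6 genes control replicate 3 was highest, at 2.99 to 10.6 times the mean of the other controls. Without it the bounds were 42.2 for Cldn34b4, 39.4 for Cldn34b2, 28.8 for Cldn34b3, 10.1 for Cldn34c4 and 9.33 for Cldn34a, and the fitted log2 fold change of Cldn34d was -4.85 against -6.08 with all libraries. Without dsfb replicate 2, the library with both reads, it was -8.90. Spermatid markers were highest in the same control library, and their part in these falls was not tested.

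Not all Cldn34 genes fell. Cldn34b1 was at 4.19, 4.21 and 7.83 CPM in control and at 5.28, 6.43 and 6.10 CPM in dsfb, with overlapping groups and no call (log2 0.13, 95% interval -0.55 to 0.82, edgeR adjusted p = 0.703). Cldn34c1 was at 0.372, 0.785 and 0.881 CPM in control and at 2.34, 2.07 and 2.16 CPM in dsfb, a 3.19-fold rise (log2 1.68, SE 0.35, edgeR adjusted p = 0.00404). On the Sertoli scaling Cldn34c1 was at 0.50 (edgeR adjusted p = 0.327) and Cldn34b1 was lower at -1.07 (edgeR adjusted p = 0.038). Copies of this family share sequence. Of the 50-base words of Cldn34b1, Cldn34b2 and Cldn34b3 39.0%, 44.2% and 24.9% stand in other genes, mainly each other, and of Cldn34c1 and Cldn34c2 13.8% and 93.9%, so their single values are uncertain. Cldn34a, Cldn34b4, Cldn34c4 and Cldn34d share none. Cldn34c2 had 2 counts in all.

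**Figure D4:**
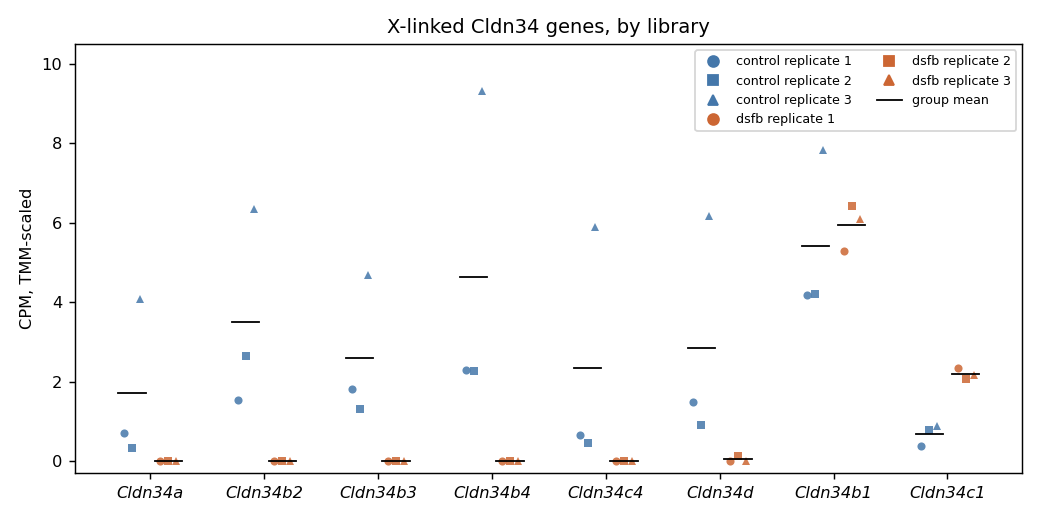
TMM-scaled CPM of 8 X-linked Cldn34 genes in each library, with control in blue, dsfb in orange and bars for group means. The 6 genes on the left are at or near 0 in dsfb and highest in control replicate 3, while Cldn34b1 and Cldn34c1 stay above 0 in every library.

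Other genes of the junction pathway were taken from lists chosen by known role, and their counts stand against the 30.7% of all genes that rose and the 36.2% that fell. Of 22 adaptor and polarity genes 12 rose and 5 fell (median log2 fold change 0.41). Ybx3, a Y-box protein that binds the Tjp1 scaffold and germ cell mRNA, fell from 1709 ± 371 to 84.2 ± 5.35 CPM, Pard6a from 34.6 ± 4.76 to 8.42 ± 1.05 CPM and Magi2 from 25.6 ± 2.57 to 7.21 ± 0.803 CPM (edgeR adjusted p = 1.08e-06, 3.44e-05 and 5.41e-05). On the Sertoli scaling these 3 were lower as well (log2 -5.53, -3.21 and -2.99). Of 23 genes of the ectoplasmic specialization and its actin 15 rose and 5 fell (median 0.70). Rai14, an actin-binding protein of that junction, fell from 463 ± 36.5 to 107 ± 5.12 CPM, while the kinase gene Src rose from 25.6 ± 1.19 to 61.4 ± 3.83 CPM and Myo7a from 245 ± 15.1 to 471 ± 12.2 CPM (edgeR adjusted p = 1.57e-06, 2.75e-05 and 5.80e-05). On the Sertoli scaling Rai14 was lower (log2 -3.28), and Src and Myo7a were not called (log2 0.11 and -0.22).

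Of 15 tested catenin, cadherin and desmosome genes outside the set 7 rose and 3 fell (median 0.46), of 14 tested connexins and pannexins 6 rose and 3 fell (median 0.51), and of 11 tested immunoglobulin-like adhesion genes 5 rose and 2 fell (median 0.74), or 4 fell without control replicate 3. Ctnna3, a catenin of the testis and heart, fell from 19.7 ± 2.91 to 9.30 ± 0.171 CPM (edgeR adjusted p = 0.00083). Cadm2 fell from 9.11 ± 0.335 to 0.519 ± 0.124 CPM, and Cadm1, an adhesion molecule of germ cells that binds Sertoli cells, rose from 174 ± 16.5 to 315 ± 8.08 CPM (edgeR adjusted p = 8.39e-06 and 0.00015). On the Sertoli scaling Ctnna3, Cadm2 and Cadm1 were lower (log2 -2.26, -5.26 and -0.29). Of 18 tested barrier regulators 17 rose and 0 fell (median 1.0). They include Nr5a1 (76.2 ± 5.55 to 177 ± 6.94 CPM) and Gata4 (58.7 ± 5.83 to 122 ± 3.06 CPM), with edgeR adjusted p = 1.64e-05 and 5.79e-05, and neither was called on the Sertoli scaling (log2 0.07 and -0.09). Sox9, Wt1, Gata4 and Nr5a1 stand in both this list and that of the Sertoli markers. Their values on the Sertoli scaling are thus in part set by that scaling and test nothing. With the Sertoli scaling 0 genes of the first 5 lists rose, and 14, 13, 9, 6 and 5 fell, and of the regulators 1 rose and 4 fell, against 1.01% and 66.8% of all genes.

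Markers of the remaining cell types were counted in the same way, and none was at 0 in both groups. Of 9 Leydig cell markers 5 rose and 0 fell, with a summed level of 326 to 533 CPM in control and 534 to 817 CPM in dsfb, and 8 rose without control replicate 3 but 2 or 3 without any 1 other library. Among the 5 was Nr5a1, which is also counted with the Sertoli markers and the barrier regulators. Of 8 peritubular myoid markers 5 rose and 0 fell, at 275 to 380 and 481 to 603 CPM. Of 8 macrophage markers 5 rose and 0 fell, at 129 to 174 and 217 to 298 CPM, with 2 or 3 rising without control replicate 2, dsfb replicate 1 or dsfb replicate 3. The 3 rises among endothelial markers were 1 without dsfb replicate 1. Of 9 spermatogonial markers, such as Kit and Stra8, 7 rose and 1 fell. Their summed level was 745 to 927 CPM in control and 496 to 557 CPM in dsfb, since the gene that fell, Dmrtb1, went from 554 to 45.3 CPM in the mean. Of 6 markers of leptotene and zygotene spermatocytes 2 rose and 1 fell, at 938 to 1814 and 1019 to 1169 CPM, and 4 fell without control replicate 3 while 1 rose without dsfb replicate 1. The part of these cell types in the changes of the junction genes was not tested.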

How the data were processed

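Polyadenylated RNA of 6 mouse testes was sequenced. Per the labels' protocols RNA was extracted with TRIzol and libraries were made with an NEBNext Ultra kit. The submitters' processing notes name STAR 2.6.0 and mm10, while for counting the tool, annotation and strandedness were not given in the sources used here. The deposited table holds whole-number counts per gene, not normalized. Of its 55487 identifiers 55227 matched GENCODE M21, which gave names, positions and exon lengths. Nothing says whether the libraries came from separate litters, so p-values measure the spread between these samples.

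Genes were filtered with filterByExpr and tested with edgeR 4.0.16 (TMM, quasi-likelihood, R 4.3.3) over all 19826 genes that passed, with Benjamini-Hochberg adjustment and a threshold of 0.05. The method was tested on simulated data in which few genes changed, in either direction. In the data here 66.9% of tested genes were called, so the simulation does not check the scaling. TPM used union exon length. Alternatives were other scalings and filters, DESeq2 1.42.0, limma-voom 3.58.1, a replicate block and leaving out each library. The 9 ratios were compared by exact two-sided permutation tests.

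Members and lists were chosen with earlier results of these data known. By rule core junction genes and the 6 largest called rises and falls are given in every library, other members at a mean of at least 1 CPM are named, rarer ones are summarised, and up to 3 called genes are named of each other list. Other genes named below that level or outside the rule were chosen after their values were seen. A few genes that enter the counts are not reported here by name. Promoter sequences are from RefSeq on GRCm38.p6.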

Additional observations from a re-analysis of the deposited data

How the results depend on the processing

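The count of members higher in dsfb, 19, went to 0 with libraries scaled to an equal Sertoli marker median and to 10 when a change of at least 2-fold was required. The count lower, 7, went to 18 with the Sertoli scaling. Other settings gave 17 to 24 higher and 6 to 10 lower, and leaving out a library gave 17 to 21 higher and 6 to 9 lower. With the Sertoli scaling these log2 fold changes turned negative: Nectin4 -0.70, F11r -0.02, Cldn12 -0.63, Cldn3 -0.58, Cldn15 -0.23, Tjp1 -0.97, Cdh1 -0.30, Jam3 -0.45, Nectin1 -1.11, Cgnl1 -0.56, Ctnnb1 -0.64, Gja1 -0.11, Tjp3 -0.58, Ocln -0.11, Marveld2 -0.19, Cldn10 -0.87, Cldn5 -0.28, Cldn1 -0.86, Jam2 -0.21, Ctnna1 -0.26, Marveld1 -0.08 and Cldn34b1 -1.07. That scaling moved the median of all genes by -1.15. Nectin1 was -0.05 with RLE scaling and with DESeq2, and -0.03 with no filter and without control replicate 3 or dsfb replicate 1, with up to 0.14 when another library was left out. Cldn10 was -0.23 without control replicate 2 and -0.18 without dsfb replicate 3 (leave-one-out range -0.23 to 0.67), and Cldn1 -0.24 without control replicate 3 (range -0.24 to 0.80). Cldn34b1 was -0.07 and -0.03 without control replicates 1 and 2 (range -0.07 to 0.47). Afdn was 0.11 with upper-quartile scaling and 0.22 with library size only, settings that moved the median of all genes by 0.28 and 0.40, and it was called lower with RLE scaling and DESeq2. Beyond what these constructions show, the cause was not tested. Same-numbered libraries deviated together with correlations of 0.07, 0.06 and 0.12, and the other pairs of a control and a dsfb library with -0.1 to 0.04. Correlations this small do not settle whether the numbers pair the samples, and the labels state no pairing. A fit with the replicate block gave 19 higher and 7 lower. Depth limits the members with few reads, above all Cldn23, Marveld3 and the Cldn34 genes.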
